A study of Mus musculus with 15 samples.

Results

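The genes described here serve protein folding and quality control in the endoplasmic reticulum (ER) and the unfolded protein response, in ILC2s, the group 2 innate lymphoid cells, taken from mouse lung. The 34 members were chosen by name and fall into 5 roles: 4 sensors and sensor-linked transcription factors, 6 genes of the integrated stress response, 15 of folding, 7 of degradation and 2 of translocation into the ER. A member was read from an array feature annotated with its symbol alone, and where a gene had several such features the brightest by its mean over the 15 arrays was taken. Of the 34 members, 33 had such a feature, and all 33 passed the filter on dim features and were tested among 16257 genes. The remaining member, the disulfide isomerase gene Pdia4, shares its feature with the microRNA gene Mir704, so its signal cannot be assigned and it has no value here.

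ILC2s reside in tissues, carry no rearranged antigen receptor and secrete IL-5, IL-13 and other cytokines. Total RNA was measured on 15 Affymetrix arrays in 5 groups of 3 biological replicates. Naive adult females and naive adult males were taken at 8 weeks of age and neonates at 10 days. Effector adult females and effector adult males had IL-33, a cytokine released by epithelium that stimulates ILC2s, given into the nose on 3 consecutive days, and their cells were isolated 1 day after the last dose. The sources used here give no strain, no genotype, no sex for the neonates, no age for the effector adults, no number of mice per replicate and no sorting markers. None of the groups was labelled as dosed without IL-33, so the dosing itself, and any batch that follows the groups, cannot be told apart from IL-33. The p-values measure the spread between the labelled replicates, whose number limits the precision.

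Proteins bound for secretion or for membranes enter the ER through the Sec61 channel, are folded there by chaperones and disulfide isomerases, and are exported, or else drawn back to the cytosol and degraded. When unfolded protein accumulates, the sensors IRE1, PERK and ATF6 are released from the chaperone BiP. IRE1 splices the Xbp1 mRNA into the form that encodes an active transcription factor, ATF6 is cleaved into one, and PERK phosphorylates the translation factor eIF2alpha. That phosphorylation, which other kinases also carry out when amino acids or heme run short, lowers general translation and favours translation of ATF4, the step named the integrated stress response. Lymphocytes that secrete much protein, of which the plasma cell is the textbook case, depend on XBP1 for an enlarged ER. The arrays measured transcript levels, so splicing, cleavage and phosphorylation were not read.

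Most of these genes were higher in effector than in naive adult cells, and a few were clearly lower. Of 33 members tested, 21 were higher and 3 lower at a limma adjusted p under 0.05 (called, below), where 23.7% of all tested genes were called higher and 10.9% lower. The median difference of the members was 0.67 on the log2 scale against 0.03 over all tested genes. By role, 3 of 4 sensor genes, 11 of 14 folding genes, 3 of 7 degradation genes and 1 of 2 translocation genes were called higher. The integrated stress genes split, with 3 of 6 higher and 2 lower. The members called lower were Ppp1r15a, Dnajb9 and Atf3.

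The balance of higher and lower calls over all genes depended on how the arrays were scaled. With each array centred on its median over the tested genes, the median difference of all genes moved from 0.03 to -0.17 and the share of higher calls from 68.5% to 37%. With each array centred on its median over all features, the same values were 0.17 and 83%. The members' median difference was 0.47 and 0.81 under these 2 scalings, with 18 members called higher and 4 lower in the first and 24 higher and 3 lower in the second. No called member changed direction under either of them or under a further quantile normalization, which called 20 members higher and 3 lower.

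**Figure D1:**
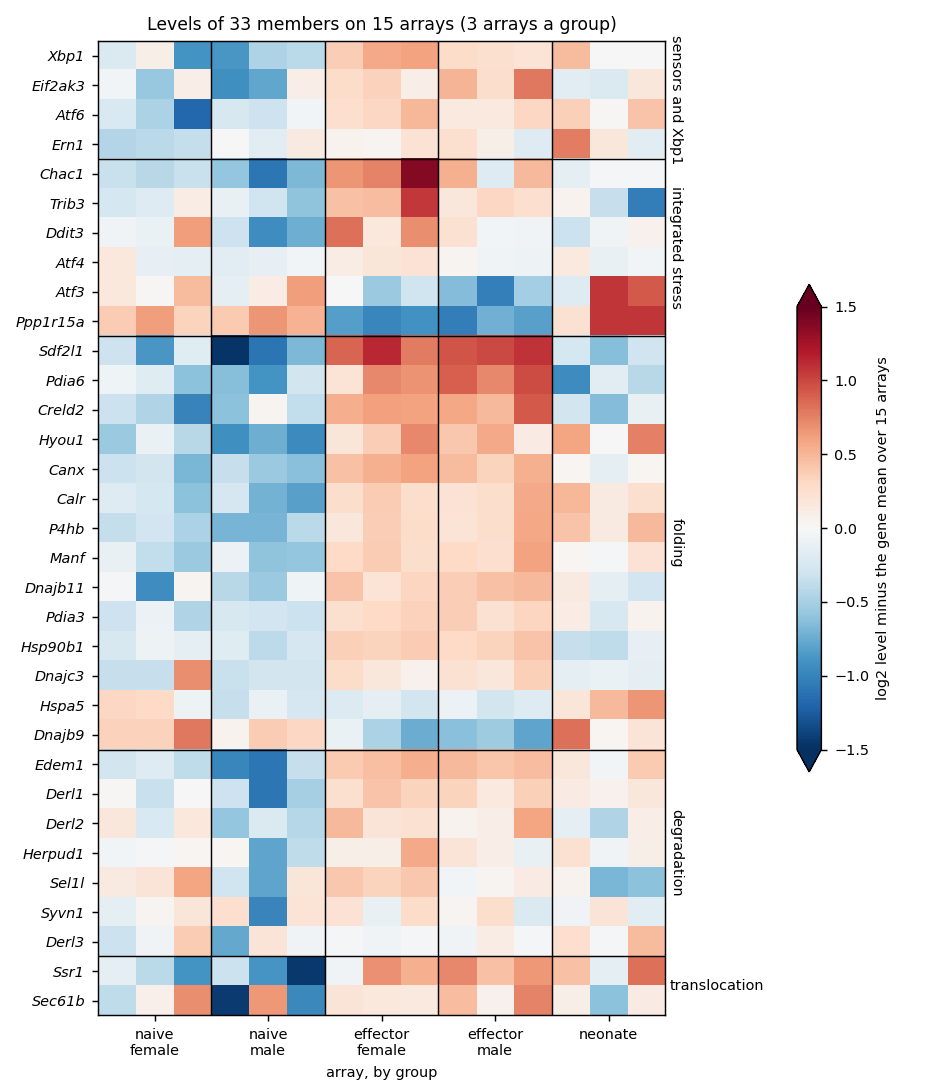
Log2 level of each of 33 members (rows, grouped by role) on each of 15 arrays (columns, 3 a group), as the difference from the gene's own mean over the 15 arrays. Most folding rows turn from blue in the naive groups to red in the effector groups, whereas Ppp1r15a and Dnajb9 run the other way and the 2 highest Hspa5 arrays are neonatal.

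Promoters of 30 members were found in the RefSeq table for GRCm38.p6, which gives 250 bases before to 50 bases after a gene's start. They are shown because the folding genes are the textbook carriers of the ER stress response element, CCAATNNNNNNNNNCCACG, to which NF-Y and the active form of ATF6 bind. The letters were searched on both strands. They were found in 9 of the 30 members (30.0%) and in 37 of 27025 genes with a promoter in the table (0.137%). In the runs below, written 5′ to 3′ on the gene's strand, the capitals are the fixed letters of the element, which reads as CGTGG and ATTGG where it lies in the opposite direction. The number after the strand is the position of the element's first base relative to the start.
Calr, chr8:84847060-84847108, minus strand, -162: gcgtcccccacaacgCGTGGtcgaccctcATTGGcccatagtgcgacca
Canx, chr11:50325785-50325833, minus strand, -145: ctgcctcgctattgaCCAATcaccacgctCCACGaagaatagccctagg
Creld2, chr15:88819505-88819553, plus strand, -126: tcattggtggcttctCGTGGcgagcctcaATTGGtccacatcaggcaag
Hsp90b1, chr10:86705518-86705566, minus strand, -107: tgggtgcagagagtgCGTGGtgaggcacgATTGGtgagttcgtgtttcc
Pdia6, chr12:17266476-17266524, plus strand, -98: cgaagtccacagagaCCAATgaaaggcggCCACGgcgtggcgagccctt
Hspa5, chr2:34772010-34772058, plus strand, -65: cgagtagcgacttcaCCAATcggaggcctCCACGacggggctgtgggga
Dnajc3, chr14:118937812-118937860, plus strand, -105: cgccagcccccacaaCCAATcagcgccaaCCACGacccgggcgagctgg
Syvn1, chr19:6046517-6046565, plus strand, -44: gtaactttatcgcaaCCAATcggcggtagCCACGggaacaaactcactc
Derl3, chr10:75893227-75893275, plus strand, -156: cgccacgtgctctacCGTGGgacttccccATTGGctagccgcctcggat

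The first 5 of these genes were called higher in effector cells, and the last 4 were not called. Hsp90b1 holds a second element in its promoter. The median difference was 0.57 for the 9 members with the element. It was also 0.57 for the 20 tested members with a promoter but no match, of which 12 were called higher and 3 lower. Those 20 include integrated stress genes such as Ppp1r15a and Atf3, so the sets differ in more than the element. Manf, Hyou1, Derl1 and Atf6, all called higher, had no promoter to search and are in neither set. Outside the members, 11 tested genes hold the element. Among them Alg12, a mannosyltransferase of glycan assembly, was higher by 0.74 ± 0.17 (SE) and Ero1b, an oxidase that feeds disulfide formation, by 0.41 ± 0.14, while Xlr3c, Xlr3a and Acnat2 were called lower. A match of letters is a description of the promoter and not evidence that a factor binds there.

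A related element, ER stress response element II, was found in Herpud1 and Dnajb11 among the members and in 12 of 27025 genes (0.0444%). The C/EBP-ATF composite TGATGNAA, the kind of site bound by ATF4 and CHOP, was found in 4 of 30 members (13.3%) and in 1219 of 27025 genes (4.51%). It is shown for 3 integrated stress genes that did not move the same way, each with the motif in the opposite direction, so that the capitals read TT and, after 1 free base, CATCA.
Chac1, chr2:119351034-119351071, plus strand, -193: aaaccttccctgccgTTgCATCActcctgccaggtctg
Trib3, chr2:152344034-152344051, minus strand, 15: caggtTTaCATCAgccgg
Atf3, chr1:191183421-191183458, minus strand, -110: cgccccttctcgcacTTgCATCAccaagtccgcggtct
Chac1 and Trib3 were called higher and Atf3 lower in effector cells. The fourth member with the composite, Herpud1, was not called.

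Among the sensors, Xbp1, which encodes the transcription factor made active by IRE1, had levels of 8.55, 8.85 and 7.86 in naive females and 7.89, 8.30 and 8.36 in naive males. In effector cells it stood at 9.13, 9.33 and 9.36 in females and at 9.04, 9.00 and 8.97 in males. All 6 effector arrays thus lay above all 6 naive arrays. How many of all tested genes separate in this way was not counted, so such separation, here and below, only describes the single gene. The difference was 0.84 ± 0.16 (SE, n = 6 effector and 6 naive arrays; limma adjusted p = 0.000982), or 1.79-fold.

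Atf6, the sensor that is cleaved into a transcription factor, ranged from 7.48 through a median of 8.38 to 8.62 on naive arrays and from 8.80 through 8.94 to 9.16 on effector arrays. The groups did not overlap, and the difference was 0.69 ± 0.15 (limma adjusted p = 0.00238). The lowest naive value belonged to a single female array, the others lying at 8.18 or above. Eif2ak3, which encodes PERK, ranged from 4.70 through 5.32 to 5.73 in naive and from 5.73 through 5.94 to 6.42 in effector cells, so that the groups met at their edges. Its difference was 0.73 ± 0.18 (limma adjusted p = 0.00584). When naive male arrays 1 and 2 and neonatal array 2, the 3 arrays with the lowest mean correlation to the others, were left out, it was 0.41 and not called (limma adjusted p = 0.102). Ern1, which encodes IRE1, differed by 0.27 ± 0.15 and was not called (limma adjusted p = 0.161).

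The sensors' partners gave a mixed picture. Of 14 further sensor and regulator genes 6 were called higher and none lower, with a median of 0.24. After centring on the tested genes the counts were 4 higher and 3 lower. They were 7 and 0 after centring on all features, and 4 and 0 after quantile normalization. Among these scalings, lower calls in that list thus appeared only with centring on the tested genes. Irf4, a transcription factor of activated lymphocytes, was higher by 3.69 ± 0.24, the NF-Y subunit gene Nfyb by 1.52 ± 0.27, and Prdm1, which encodes the secretory cell regulator Blimp-1, by 1.04 ± 0.18.

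Folding genes held the largest rise among the members. Sdf2l1, a partner of BiP and its DnaJ cochaperones in the ER, stood at 7.20, 6.63 and 7.32 in naive females and at 6.04, 6.41 and 6.83 in naive males. In effector cells it stood at 8.38, 8.64 and 8.28 in females and at 8.45, 8.50 and 8.59 in males. The lowest effector array exceeded the highest naive array, and the difference was 1.74 ± 0.16, or 3.33-fold (limma adjusted p = 7.68e-07).

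The next 3 by size were Pdia6, Creld2 and Hyou1, none of which overlapped between the groups. Pdia6, a disulfide isomerase, ranged from 6.92 through a median of 7.37 to 7.75 on naive arrays and from 8.02 through 8.54 to 8.79 on effector arrays, a difference of 1.14 ± 0.17. Creld2, an ER stress-inducible protein that can be secreted, ranged from 7.04 through 7.63 to 8.08 and from 8.53 through 8.63 to 8.96, a difference of 1.08 ± 0.16. Hyou1, a large chaperone that exchanges nucleotide on BiP, ranged from 6.05 through 6.37 to 6.91 and from 7.13 through 7.40 to 7.73, a difference of 1.01 ± 0.15. On the linear scale the rises were 2.21-fold, 2.12-fold and 2.01-fold.

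The lectin chaperones calnexin and calreticulin hold newly glycosylated proteins while they fold. Canx ranged from 9.54 through 9.78 to 9.95 on naive and from 10.56 through 10.73 to 10.83 on effector arrays, and differed by 0.95 ± 0.11 (limma adjusted p = 1.17e-05). Calr ranged from 7.90 through 8.28 to 8.52 and from 8.93 through 8.98 to 9.28, and differed by 0.80 ± 0.13. Neither gene's groups overlapped. P4hb, the classical disulfide isomerase, ranged from 8.35 through 8.61 to 8.76 in naive and from 9.22 through 9.32 to 9.63 in effector cells, with a difference of 0.80 ± 0.12.

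Among the remaining folding genes, the secreted ER stress factor gene Manf was higher by 0.73 ± 0.13 and the BiP cochaperone gene Dnajb11 by 0.70 ± 0.16. Pdia3, the isomerase that works with the lectin chaperones, was higher by 0.58 ± 0.11 and Hsp90b1, which encodes the chaperone GRP94, by 0.57 ± 0.10. All 4 were called and their groups did not overlap. Without the 3 least correlated arrays Dnajb11 was at 0.56 and not called (limma adjusted p = 0.0542).

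Hspa5, which encodes BiP itself, did not move with its partners. It ranged from 8.97 through 9.23 to 9.63 on naive arrays and from 9.04 through 9.13 to 9.23 on effector arrays, and the effector range lay inside the naive one. The difference was -0.16 ± 0.12 and was not called as deposited (limma adjusted p = 0.306), though after centring on the tested genes it was -0.37 and was called lower (limma adjusted p = 0.0198). Dnajb9, a BiP cochaperone that restrains IRE1, was lower in effector cells. Its naive arrays ranged from 9.34 through 9.64 to 10.08 and its effector arrays from 8.50 through 8.71 to 9.19, and they did not overlap. It fell by 0.92 ± 0.16 (limma adjusted p = 0.000414).

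Dnajc3, a cochaperone known as an inhibitor of PERK, was not called at 0.36 ± 0.16 (limma adjusted p = 0.0927). Of its naive arrays 5 lay between 8.36 and 8.43 and naive female array 3 at 9.40, against 8.77 to 9.06 in effector cells. Without that array the difference was 0.53 and was called (limma adjusted p = 0.0013).

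**Figure D2:**
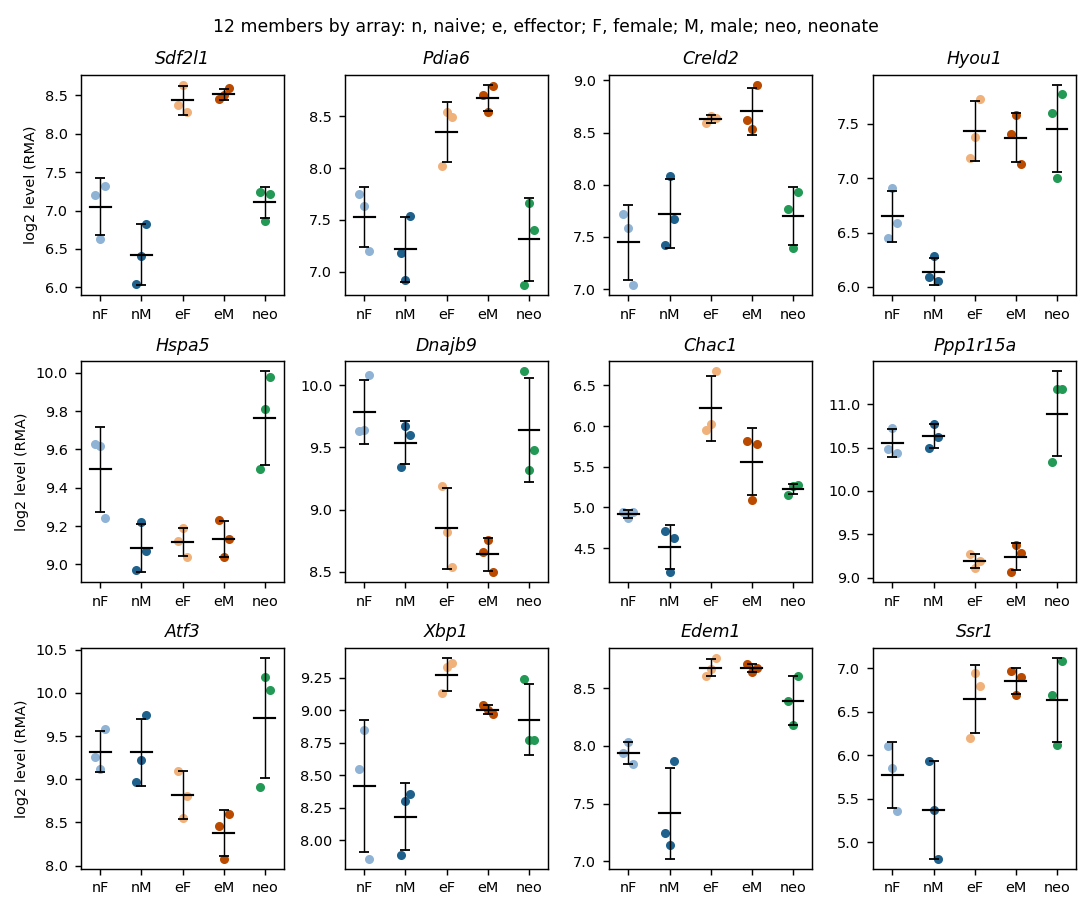
Log2 level of 12 members on each array, with points for arrays and bars for the group mean ± SD (3 arrays a group). Sdf2l1 effector arrays lie between 8.28 and 8.64 and all naive arrays at 7.32 or below, whereas Ppp1r15a effector arrays lie at 9.38 or below and all other arrays at 10.33 or above.

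Genes of ER-associated degradation, which draws misfolded protein out to the proteasome, were called less evenly. Edem1, which directs misfolded glycoproteins to degradation, stood at 7.94, 8.03 and 7.84 in naive females and at 7.24, 7.14 and 7.87 in naive males. On effector arrays it stood at 8.61, 8.67 and 8.76 in females and at 8.71, 8.64 and 8.68 in males. The groups did not overlap and the difference was 1.00 ± 0.13, or 2.00-fold (limma adjusted p = 4.1e-05). A second, dim feature of Edem1, with a naive mean of 3.78, gave 0.47.

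The derlins form part of the channel through which such proteins leave. Derl1 ranged from 7.10 through 7.86 to 8.20 on naive and from 8.33 through 8.51 to 8.61 on effector arrays, without overlap, and was higher by 0.67 ± 0.13. Derl2 ranged from 4.75 through 5.11 to 5.50 and from 5.38 through 5.54 to 5.92, with overlap, and was higher by 0.46 ± 0.14 (limma adjusted p = 0.0197). The call of Derl2 ended when naive female array 2 (0.40), effector female array 1 (0.42) or array 3 of the effector males (0.38) was left out, and after centring on the tested genes (0.26). Another feature of Derl2 gave 0.25. Derl3 differed by 0.09 ± 0.17 and was not called.

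The core of the ubiquitin ligase complex showed no call. Syvn1, the ligase HRD1, differed by 0.15 ± 0.19, and Sel1l, its adaptor, by 0.21 ± 0.17. Herpud1, which helps assemble the complex, differed by 0.35 ± 0.14 (limma adjusted p = 0.0733). It was at 0.45 and called when naive male array 1 was left out (limma adjusted p = 0.0189).

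Of the translocation genes, Ssr1, a subunit of the translocon-associated protein complex, stood at 6.11, 5.85 and 5.36 in naive females and at 5.93, 5.37 and 4.81 in naive males. On effector arrays it stood at 6.20, 6.94 and 6.79 in females and at 6.97, 6.69 and 6.90 in males. The groups did not overlap, by a small margin, and the difference was 1.18 ± 0.22 (limma adjusted p = 0.000624). Its second feature, dim in naive cells, had means of 4.29 there and 5.48 in effector cells and gave 1.19. Sec61b, a subunit of the channel, was spread from 3.73 to 5.87 over naive arrays and differed by 0.52 ± 0.30 without a call (limma adjusted p = 0.187). Without naive male array 2, whose level was 5.82, it was at 0.83 and called (limma adjusted p = 0.00747). The second feature of Sec61b gave 0.57. With the mean of its features Sec61b was at 0.54 and also called (limma adjusted p = 0.0316).

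The wider ER pathway was counted in lists of genes that are no members. Of 19 further folding genes 12 were called higher and none lower, with a median of 0.44. Clgn, a calnexin relative, was higher by 1.47 ± 0.20, Ganab, the glucosidase subunit that trims glycans, by 1.27 ± 0.27, and Uggt1, the sensor that sends unfolded glycoproteins back to calnexin, by 0.85 ± 0.17. Of 13 glycosylation genes 9 were higher and 1 lower, led by the oligosaccharyltransferase subunits Rpn1 at 1.33 ± 0.25, Magt1 at 1.22 ± 0.22 and Ddost at 0.95 ± 0.18. Of 21 further translocation genes 10 were higher and none lower, with Ssr3 at 0.83 ± 0.11, the signal recognition particle receptor gene Srprb at 0.83 ± 0.22 and Srp72 at 0.82 ± 0.16.

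Export from the ER and degradation were counted in the same way. Of 18 genes of export from the ER 10 were higher and none lower, with the retrieval receptor gene Kdelr2 at 1.39 ± 0.32, the cargo receptor gene Tmed2 at 1.13 ± 0.15 and Lman1, which carries glycoproteins to the Golgi, at 0.96 ± 0.15. Of 18 further degradation genes 7 were higher, among them Nploc4 at 0.98 ± 0.13 and the ATPase gene Vcp, its partner in extraction, at 0.94 ± 0.12, followed by the ubiquitin conjugating enzyme gene Ube2j2 at 0.88 ± 0.23. One was lower, the deglycosylase gene Ngly1, which fell by 0.66 ± 0.17. Over these 5 lists together 48 of 89 tested genes were higher and 2 lower, with a median of 0.44. Chaperones outside the ER were counted beside them. Of 15 cytosolic and mitochondrial heat shock genes 10 were higher and none lower, with a median of 0.58, led by Hspd1 at 1.72 ± 0.17, Hsph1 at 1.39 ± 0.21 and Hspa9 at 1.04 ± 0.16. After centring on the tested genes, the 19 folding, 13 glycosylation, 21 translocation, 18 export and 18 degradation genes had 8, 6, 6, 7 and 4 higher calls and 0, 2, 0, 1 and 1 lower calls. The 15 heat shock genes had 6 higher and 1 lower. Over all 16257 genes that scaling called 2608 higher and 4445 lower. The medians of these 6 lists lay between 0.20 and 0.37. Centred on all features instead, the 5 ER lists, in the same order, had 14, 9, 15, 14 and 11 higher calls. Only the degradation list had a lower call there, 1, and over all genes 5015 were higher and 1024 lower.

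The integrated stress genes parted into rises and falls. Chac1, which degrades glutathione and is a target of ATF4, stood at 4.95, 4.87 and 4.95 in naive females and at 4.71, 4.21 and 4.62 in naive males. On effector arrays it stood at 5.95, 6.03 and 6.67 in females and at 5.82, 5.09 and 5.78 in males. All effector arrays lay above all naive arrays, and the difference was 1.17 ± 0.16, or 2.26-fold (limma adjusted p = 5.14e-05).

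Ppp1r15a encodes GADD34, which leads a phosphatase to eIF2alpha and so ends the response. It stood at 10.48, 10.73 and 10.44 in naive females and at 10.50, 10.77 and 10.62 in naive males. On effector arrays it stood at 9.28, 9.12 and 9.20 in females and at 9.07, 9.38 and 9.29 in males. A gap of more than 1 log2 unit separated the groups. It fell by 1.37 ± 0.15 (limma adjusted p = 5.47e-06), to 0.39 of the naive level on the linear scale.

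Atf3, a stress-inducible repressor, ranged from 8.97 through 9.24 to 9.74 on naive arrays and from 8.08 through 8.57 to 9.10 on effector arrays, with overlap, and fell by 0.72 ± 0.21 (limma adjusted p = 0.017). The smaller rises were those of Trib3, a pseudokinase that restrains ATF4 and AKT, at 0.67 ± 0.18 (limma adjusted p = 0.00837) and of Ddit3, which encodes CHOP, at 0.55 ± 0.17 (limma adjusted p = 0.0193). Trib3 was not called after centring on the tested genes (0.47). Ddit3 was not called after that centring (0.35), after quantile normalization (0.36), or without naive female array 2 (0.49) or effector female array 1 (0.48). The transcript of Atf4, whose protein is regulated mainly by translation, differed by 0.15 ± 0.10 and was not called.

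Of 19 further integrated stress genes, many of them textbook targets of ATF4, 13 were called higher and 1 lower. Their median was 0.97, beside 0.35 for the 6 members of the same response. Asns, asparagine synthetase, was higher by 2.85 ± 0.18, from a mean of 4.94 ± 0.47 (SD, n = 6) to 7.79 ± 0.12 (SD, n = 6). The mitochondrial folate enzyme gene Mthfd2 was higher by 2.66 ± 0.17 and Shmt2, which feeds it, by 2.26 ± 0.19.

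Immediate early genes were counted beside Atf3 and Ppp1r15a, since both are also induced rapidly by many stimuli. Of 12 such genes, a list chosen with these results known, 10 were called lower in effector cells and 1 was called higher, at a median of -0.89. Btg2 fell by 1.77 ± 0.14, Zfp36 fell by 1.43 ± 0.17 and Jun fell by 1.32 ± 0.25. Their part in the falls of Atf3, Ppp1r15a and Dnajb9 was not tested.

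**Figure D3:**
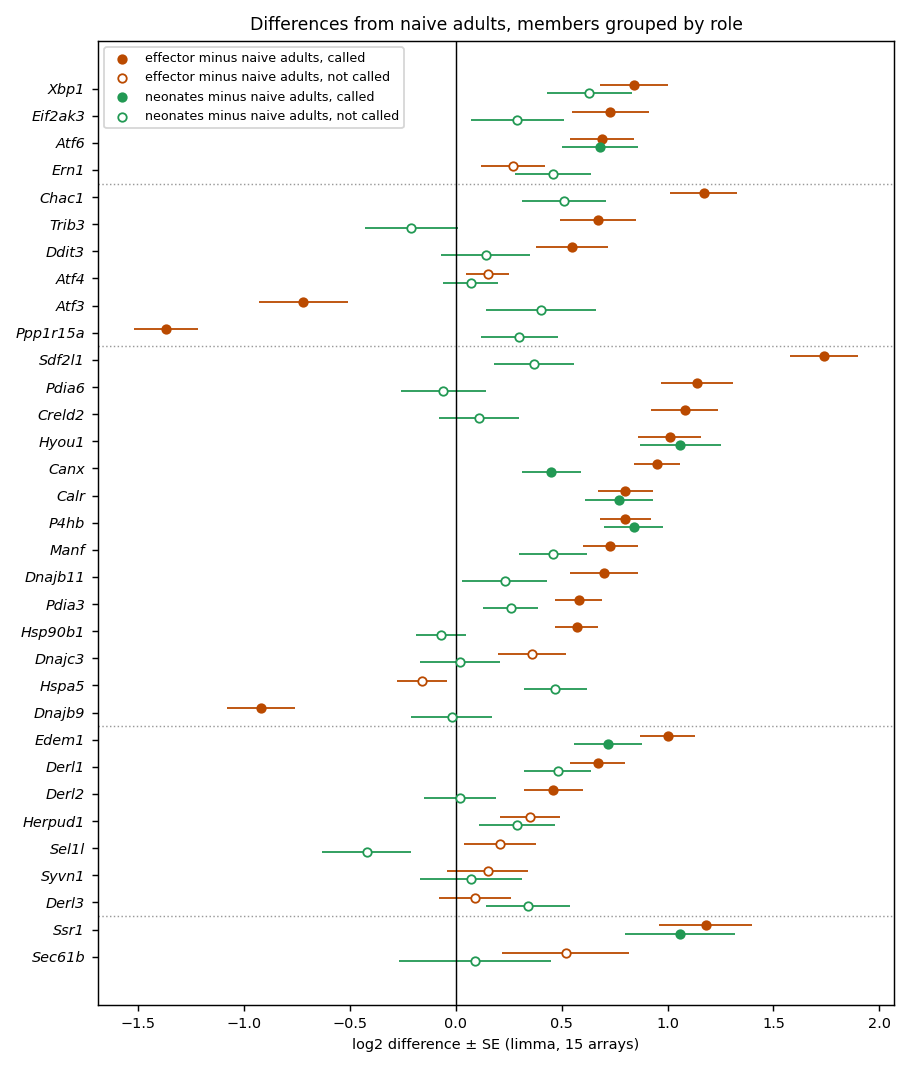
Difference from naive adults on the log2 scale, ± SE from the limma fit to 15 arrays, of 33 members ordered by role, for effector adults and for neonates, which share the naive arrays. Filled points were called. Sdf2l1 at 1.74 and Ppp1r15a at -1.37 mark the ends for effector cells, and the 7 members called in neonates lie between 0.45 and 1.06.

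The same comparison in each sex gave 14 members higher and 2 lower in females, where 10.2% of all tested genes were higher and 3.77% lower. In males 19 members were higher and 3 lower, where 18.7% of all genes were higher and 6.25% lower. The members' median was 0.51 in females and 0.70 in males, against 0.01 and 0.08 over all genes. The female count of 16 calls dropped to 7 without naive female array 3 or effector female array 2, to 6 without effector female array 3, and to 10 after centring on the tested genes.

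A test of the difference between the responses called no member and 0% of all genes, with 866 of 16257 genes at an unadjusted p under 0.05. The members' differences, female minus male response, ranged from -0.97 to 0.59. Sdf2l1 was higher by 1.38 ± 0.22 in females and by 2.09 ± 0.22 in males, a difference of -0.71 ± 0.31 (limma adjusted p = 0.909). Atf6, at 0.99 ± 0.21 in females and 0.39 ± 0.21 in males, differed by 0.59 ± 0.30 (limma adjusted p = 0.934). Ppp1r15a fell by 1.35 ± 0.21 in females and fell by 1.38 ± 0.21 in males, and Dnajb9 fell by 0.93 ± 0.23 and fell by 0.90 ± 0.23. For these 2 genes the values of the sexes nearly coincided.

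Naive females and naive males did not differ in any member at an adjusted p under 0.05 in limma, nor did effector females and effector males, where 0.209% and 0.0308% of all genes were called. The naive differences, female minus male, ranged from -0.43 for Atf6 to 0.81 for Ddit3. Ddit3 stood at 7.08, 7.04 and 7.76 in naive females against 6.83, 6.21 and 6.41 in naive males, without overlap, at 0.81 ± 0.24 (limma adjusted p = 0.243). The effector differences ranged from -0.33 for Pdia6 to 0.65 for Chac1.

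**Figure D4:**
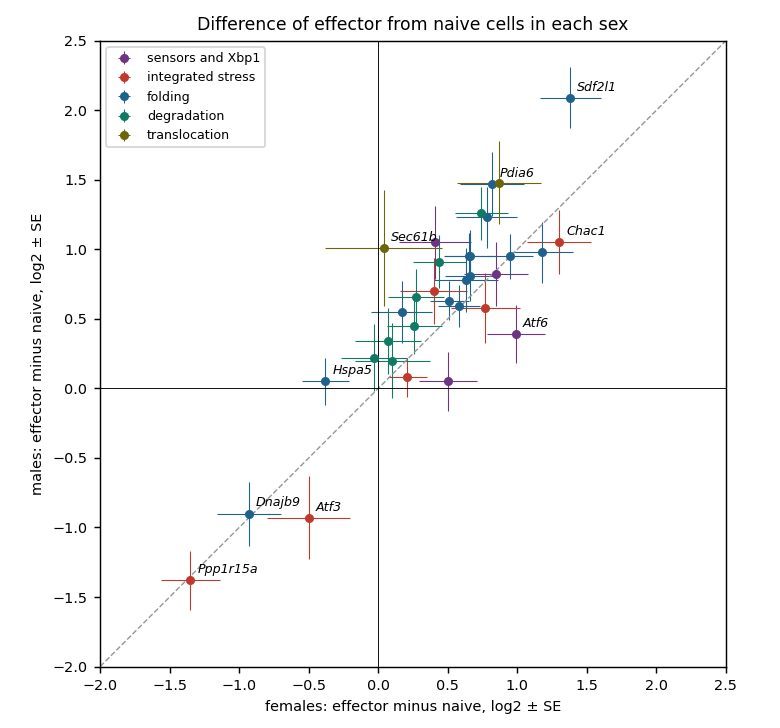
Difference of effector from naive cells in males against that in females, on the log2 scale, ± SE from the limma fit, one point a member and colours for the 5 roles; the dashed line marks equal differences. Sdf2l1 lies above the line at 1.38 and 2.09 and Atf6 below it at 0.99 and 0.39, and no member's difference between the sexes was called.

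Neonatal cells, which had not been given IL-33, were higher than naive adult cells in a smaller set. Of 33 members 7 were called higher and 0 lower, where 6.04% of all genes were higher and 4.12% lower, and the members' median was 0.30 against 0.02 over all genes. The 7 were the sensor gene Atf6, the folding genes Calr, Canx, P4hb and Hyou1, Edem1 and Ssr1. No integrated stress member was called. This comparison uses the same naive arrays as the effector comparison, so values of both are given side by side.

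Hyou1 stood at 7.60, 7.00 and 7.77 on the neonatal arrays, all above the naive maximum of 6.91. It was higher than in naive adults by 1.06 ± 0.19 (SE, n = 3 neonatal and 6 naive arrays; limma adjusted p = 0.00249), beside 1.01 in effector cells. P4hb stood at 9.48, 9.18 and 9.54, above the naive maximum of 8.76, and was higher by 0.84 ± 0.14 (limma adjusted p = 0.00177), beside 0.80. These 2 genes were called in the comparison of neonates with naive adults under every alternative setting that was run.

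Calr stood at 9.21, 8.85 and 8.95, above the naive maximum of 8.52, and was higher by 0.77 ± 0.16 (limma adjusted p = 0.00746), beside 0.80 in effector cells. Against naive females alone it was at 0.65 and not called (limma adjusted p = 0.0564). Atf6 stood at 9.01, 8.68 and 9.08, above the naive maximum of 8.62, and was higher by 0.68 ± 0.18 (limma adjusted p = 0.03), beside 0.69. Its call ended without naive male array 2 (0.65), neonatal array 1 (0.64) or neonatal array 3 (0.60), and against naive males alone (0.46). Canx stood at 10.26, 10.09 and 10.26, between the naive and the effector range, and was higher by 0.45 ± 0.14 at the edge of the threshold (limma adjusted p = 0.0497). That call ended when any 1 array was left out except naive male array 1 (limma adjusted p = 0.051 to 0.133).

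Edem1 stood at 8.39, 8.18 and 8.61 in neonates and was higher by 0.72 ± 0.16 (limma adjusted p = 0.0116), beside 1.00 in effector cells. Ssr1 stood at 6.69, 6.12 and 7.08 and was higher by 1.06 ± 0.26 (limma adjusted p = 0.02), beside 1.18. Neither overlapped with the naive arrays, Ssr1 by a narrow margin. The second features of both genes pointed the other way in neonates, at -0.31 for Edem1 and -0.27 for Ssr1. Both features were dim. That of Edem1 had means of 3.78 in naive adults and 3.48 in neonates, and that of Ssr1 4.29 and 4.02. The upper quartile of the sensory receptor genes, used below as background, was 4.07 in naive adults and 3.72 in neonates. When the features of each gene were averaged, neither gene was called, at 0.20 and 0.39. Against naive females alone Edem1 was at 0.46 (limma adjusted p = 0.18) and Ssr1 at 0.85 (limma adjusted p = 0.119), and neither was called. Ssr1 was also not called without neonatal array 1 (1.03) or neonatal array 3 (0.83).

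Just outside the call were Hspa5, Xbp1, Derl1 and Manf. Hspa5 stood at 9.50, 9.81 and 9.98 in neonates and differed by 0.47 ± 0.15 (limma adjusted p = 0.0509). Without neonatal array 1 it was at 0.61 and called (limma adjusted p = 0.0332). Xbp1 stood at 9.24, 8.77 and 8.77 and differed by 0.63 ± 0.20 (limma adjusted p = 0.0577), and without naive female array 2 it was at 0.74 and called. Derl1 differed by 0.48 ± 0.16 and Manf by 0.46 ± 0.16, and both were called without naive male array 1, at 0.56 and 0.54. Ern1 at 0.46 ± 0.18 was called without neonatal array 3 (0.67), and Ppp1r15a at 0.30 ± 0.18 without neonatal array 1 (0.58).

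Not every folding gene called higher in effector cells was called in neonates. Sdf2l1 stood at 7.24, 6.87 and 7.21 in neonates and differed from naive adults by 0.37 ± 0.19. Pdia6, at 6.87, 7.66 and 7.40, differed by -0.06 ± 0.20, Creld2 by 0.11 ± 0.19 and Hsp90b1 by -0.07 ± 0.12. None of these 4 was called.

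Neonates were therefore compared with effector adults directly. Of 33 members 4 were higher in neonates and 8 lower, where 5.93% of all genes were higher and 14.7% lower. Those lower in neonates were the folding genes Sdf2l1, which fell by 1.37 ± 0.19 relative to effector cells (limma adjusted p = 0.000223), Pdia6 at -1.21 ± 0.20, Creld2 at -0.97 ± 0.19, Hsp90b1 at -0.64 ± 0.12 and Canx at -0.51 ± 0.14. Trib3 at -0.89 ± 0.22, Chac1 at -0.67 ± 0.20 and Sel1l at -0.62 ± 0.21 completed the set. Hyou1, P4hb, Calr, Atf6 and Ssr1 differed between neonatal and effector cells by 0.05 ± 0.19, 0.04 ± 0.14, -0.04 ± 0.16, -0.01 ± 0.18 and -0.12 ± 0.26, and were not called.

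The members higher in neonates than in effector cells were Ppp1r15a, Atf3, Dnajb9 and Hspa5. Ppp1r15a stood at 10.33, 11.17 and 11.17 in neonates and was higher by 1.67 ± 0.18, or 3.18-fold (limma adjusted p = 2.53e-05). Atf3 stood at 8.91, 10.18 and 10.03, the first of which fell inside the effector range, and was higher by 1.11 ± 0.26. Dnajb9, at 10.11, 9.32 and 9.48, was higher by 0.89 ± 0.19, and Hspa5 by 0.64 ± 0.15, with every neonatal array of both genes above every effector array. The immediate early genes had 1 higher call and none lower of 12 in neonates against naive adults, with a median of -0.12.

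The further ER lists had fewer calls in neonates against naive adults than in effector cells. Of the 89 genes of folding, glycosylation, translocation, export and degradation, 10 were higher and none lower. Over all tested genes 6.04% were higher and 4.12% lower. The median was 0.17 for the 89 genes, against 0.02 over all genes. The disulfide oxidase gene Ero1a was higher by 0.89 ± 0.19, beside 0.78 ± 0.15 in effector cells, and the oligosaccharyltransferase subunit gene Stt3a by 0.71 ± 0.18, beside 0.88 ± 0.15. The 14 further sensor and regulator genes, counted apart from these 89, had 3 higher calls and no lower call in neonates. Mbtps2, a protease that cleaves ATF6, was higher by 1.28 ± 0.22 in neonates and by 0.49 ± 0.18 in effector cells. Mbtps1, the protease that cuts before it, was higher by 0.78 ± 0.20 and 0.56 ± 0.16. The 15 cytosolic and mitochondrial heat shock genes had 1 higher call and 2 lower calls in neonates, with a median of -0.05. After centring on all features none of them was called lower. Of the 19 further integrated stress genes 3 were higher and 1 lower. Asns, at 5.07 ± 0.41 (SD, n = 3), differed from naive adults by 0.13 ± 0.22 and was not called.

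The state of the cells and their purity were read from the same arrays. Mki67, a proliferation marker, was higher than in naive adults by 4.87 ± 0.22 in effector cells and by 3.96 ± 0.27 in neonates, Il13 by 3.07 ± 0.14 and 2.36 ± 0.17, and Il5 by 1.46 ± 0.21 and 1.95 ± 0.26. Gata3, the defining transcription factor of ILC2s, was not called in effector cells, at -0.11 ± 0.12. Of 11 tested ILC2 markers, a list that itself holds Il13, Il5 and Gata3, 4 were higher and 1 lower in effector cells. Their median difference from naive adults was 0.0 in effector cells and -0.08 in neonates. Their mean level ranged from 8.81 to 9.22 on naive, 9.25 to 9.61 on effector and 9.15 to 9.58 on neonatal arrays. The rises of Il13 and Il5 enter that mean, so it is no measure of purity alone. B and plasma cell markers, which belong to cells rich in ER, had mean levels of 4.69 to 5.06, 4.46 to 4.61 and 4.72 to 4.95, with 1 of 5 tested higher (Cd79b) and 1 lower (Ighm) in effector cells. T cell markers had 3 of 7 lower in effector cells. Their mean levels were 6.23 to 6.47 on naive, 5.68 to 5.99 on effector and 6.35 to 6.6 on neonatal arrays. Mast cell and basophil markers had mean levels of 5.81 to 5.98, 5.49 to 6.22 and 6.27 to 6.98 on the same arrays. In neonates against naive adults 2 of 5 mast cell and basophil markers were higher (Cpa3 and Mcpt8), as were 1 of 6 epithelial (Sftpc) and 1 of 7 macrophage markers (Cd68, at 0.72 ± 0.21). Of 7 T cell markers 1 was higher (Cd3e, at 1.21 ± 0.25) and 1 lower (Lat, at -0.92 ± 0.14), and of 5 B and plasma cell markers 1 was lower (Ighm, at -0.91 ± 0.26). None of 4 endothelial and 3 fibroblast markers was called there. The part of proliferation and of these other cells in the members' values was not tested, and in bulk RNA fewer cells of a type and less RNA per cell cannot be told apart.

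The dimmest members were set against 1390 sensory receptor genes, used by sensory neurons, whose signal stands for background. The upper quartile of these genes was 4.07 in naive adults, 3.37 in effector adults and 3.72 in neonates, and no member's group mean lay at or below it. In naive cells 16.8% of the receptor genes lay at or above the mean of Derl3, 13.8% at or above that of Trib3 and 12.5% at or above that of Chac1. The differences of these 3 genes are thus differences of dim signals. The receptor genes' mean per array was 3.14 to 3.62 on naive, 2.72 to 2.85 on effector and 3.03 to 3.37 on neonatal arrays, lower where most members were higher.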

How the data were processed

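The authors deposited log2 expression levels, which the submitters' processing notes credit to Affymetrix Expression Console and RMA. RMA subtracts background, equalizes quantiles between arrays and condenses the probes of a feature into 1 value. Its versions and filters are not stated in the labels. RNA extraction used Trizol and labelling the Nugen Encore biotin kit, as the labels' protocols say. Of 41345 features, 23521 carried exactly 1 gene symbol in the platform annotation. Features above percentile 40 of an array on 3 or more arrays were kept, and the brightest on average stood for its gene.

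Group means were estimated over the 15 arrays together in limma 3.58.1 (R 4.3.3), with 10 residual and 5.05 prior degrees of freedom. Of the 8 contrasts, those that pooled adult females and males weighted the sexes equally. All tests were two-sided, Benjamini-Hochberg adjustment ran over 16257 genes, and calls were made under 0.05. SE is the moderated standard error. Simulated data had 100 genes moved by 1 log2 unit and another 100 by 2. Of the former, 88 were recovered for effector against naive adults, 74 for neonates against naive adults and 58 for effector against naive females. False calls among the unmoved genes were 8, 6 and 12. In the real data 3855 genes were called higher and 1773 lower in effector against naive adults, so recovery there can differ.

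Members and lists were chosen with earlier results of these data known, and the immediate early list, Top2a and Ccnb2 were added after the values were seen. Every member is reported. Array values are given for the called members with the largest differences in each role and for those called in neonates, and up to 3 called genes are named per further list. Top2a and Ccnb2 were higher by 4.43 ± 0.15 and 4.57 ± 0.17 in effector cells. Macrophage markers had 1 of 7 higher and 1 lower, mast cell and basophil markers 2 of 5 lower, endothelial markers 1 of 4 lower, and none of 6 epithelial and 3 fibroblast markers was called, in effector against naive adults.

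Replicate numbers recur in every group, but deviations of arrays with the same number correlated at -0.11 to 0.099, so the numbers were not taken as pairs. Alternatives were the dim filter, 3 scalings, the prior, array weights, the arrays fitted, the mean of a gene's features, a replicate block, leaving out each array, naive adults of each sex alone and leaving out the 3 least correlated arrays; the last 2 and centring on all features were chosen after seeing the data. Figures were drawn with matplotlib 3.10.9.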

Additional observations from a re-analysis of the deposited data

How the results depend on the processing

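Of the 24 members called in effector against naive adults, none reversed in 624 values under the alternatives, and 613 of those values kept the call. Ddit3, Derl2, Dnajb11, Eif2ak3 and Trib3 lost it under at least 1. Of the 7 called in neonates against naive adults, 154 of 196 values kept the call, and Atf6, Calr, Canx, Edem1 and Ssr1 lost it under at least 1. The count in females, 16, was 10 after centring on the tested genes and 6 to 17 with 1 array left out. The count of 7 in neonates was 4 with array weights, 2 with only the arrays compared, where fewer arrays inform the spread, and 3 against naive females alone. With the replicate block the counts were 24 in effector against naive adults, 16 in females, 22 in males, 6 in neonates against naive and 12 against effector adults, and 0 in the other comparisons. In effector and in neonatal against naive adults the block ended the neonatal call of Canx (limma adjusted p = 0.0714) and no other call of a member. Reversals were limited to members not called. In effector against naive adults, centring on the tested genes gave -0.0565 for Atf4, -0.051 for Syvn1 and -0.11 for Derl3, and quantile normalization gave -0.0493 for Syvn1. Leaving out 1 array gave -0.0535 to 0.26 for Syvn1 and -0.0484 to 0.19 for Derl3. In neonates against naive adults, quantile normalization gave -0.0127 for Atf4 and -0.0433 for Dnajc3, array weights 0.0525 and centring on all features 0.0102 for Dnajb9, and the mean of features -0.17 for Sec61b. Leaving out 1 array there gave -0.0081 to 0.12 for Atf4, -0.46 to 0.0846 for Trib3, -0.24 to 0.16 for Pdia6, -0.26 to 0.13 for Dnajb9, -0.0647 to 0.19 for Dnajc3, -0.0049 to 0.27 for Creld2, -0.14 to 0.18 for Syvn1, -0.11 to 0.16 for Derl2 and -0.12 to 0.40 for Sec61b. The cause was not tested for the other changes. With 3 arrays a group, changes of 1 log2 unit can be missed in a single sex, and dim members such as Derl3 have little signal over background.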
